A study of Mus musculus with 30 samples.

Results

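Two-colour arrays from wild type mouse embryonic fibroblasts (MEFs) kept in 100 mM NaCl for 8 h form the subject here: 2 arrays, 1 for each of 2 independent experiments, of the 30 arrays in the series. They were chosen by their labels, as the wild type arrays with NaCl for 8 h and no inhibitor. The series covers 11 wild type conditions and 4 conditions of p38α-/- MEFs, with 2 arrays for each. Wild type MEFs received anisomycin (25 ng/ml) or the cytokine TNFα (100 ng/ml) for 45 min, or NaCl (100 mM) for 45 min, 2 h or 8 h, each with or without the p38 inhibitor SB203580 (10 µM, added 30 min before the stress), and 1 further condition was SB203580 alone. Every array carried the treated RNA in the red dye, Cy5, and, in the green dye, Cy3, RNA pooled from 2 untreated cultures of wild type MEFs. No array had the dyes exchanged, so a dye effect of a probe cannot be told apart from a difference to the pool, and the pool is 1 control sample whose own spread enters no test. Direct comparisons of 8 h with 2 h, with 45 min or with SB203580 and NaCl for 8 h have the same dye and the same pool on both sides. MEFs are cultured cells of mixed origin within the embryo, and each RNA came from a whole culture, so fewer cells of a kind and less RNA per cell cannot be told apart.

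Extra salt outside a cell draws water out of it, and the cell shrinks within minutes. Mammalian cells answer by activating the stress-activated kinase p38 and, over hours, the transcription factor Nfat5, which drives genes for osmolyte synthesis, osmolyte uptake and chaperones. The kinase response is early and passing, whereas the accumulation of osmolytes takes hours, so a late time point shows what follows the immediate early genes.

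The 2 arrays had 41534 spots each. Spots marked as outliers by the scanner software, which were left out, made up 9.04% of array 1 and 30.0% of array 2, and on the same arrays 92.5% and 95.8% of spots were well above background in Cy5. A gene's level is given as the log2 ratio to the pool, averaged over its measured probes, so 1 stands for a 2-fold difference. Of 14 fibroblast markers on the array (collagens, vimentin and the like) 13 were measured on both arrays, all of them well above background in both dyes. Of 25 markers of leukocyte, epithelial, endothelial, muscle and adipocyte cells 18 were measured on both arrays, and all 18 were well above background too, so this flag does not separate cell types. Of the 13 measured fibroblast markers Twist1 alone was called higher, at 1.20 (log2), and of the 18 others none was called.

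At the 2-fold threshold more genes lay above the pool than below it at 8 h, whereas by the adjusted p alone the numbers were close. A gene was called higher or lower where limma gave an adjusted p under 0.05 and both arrays were at least 2-fold from the pool in the same direction. Of 16378 genes measured on both arrays, 259 were higher (1.58%) and 126 were lower (0.769%). The adjusted p alone, with no threshold on size, gave 1773 higher (10.8%) and 1795 lower (11.0%). Among the higher genes 27 were at least 4-fold up on both arrays and 5 at least 8-fold, whereas 4 of the lower genes were at least 4-fold down on both. The median higher gene lay at 1.34 on array 1 and 1.64 on array 2, and the median lower gene at -1.36 and -1.25. Over all genes the median absolute difference between the 2 arrays was 0.23 (log2), and 67.1% of genes lay on the same side of the pool on both. With the threshold applied to 1 array only, the counts were 578 higher and 247 lower without array 1, and 290 and 328, with more genes lower than higher, without array 2. With background subtracted by normexp and loess between the dyes, 151 higher and 41 lower genes were left, all of them among the genes called here.

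**Figure D1:**
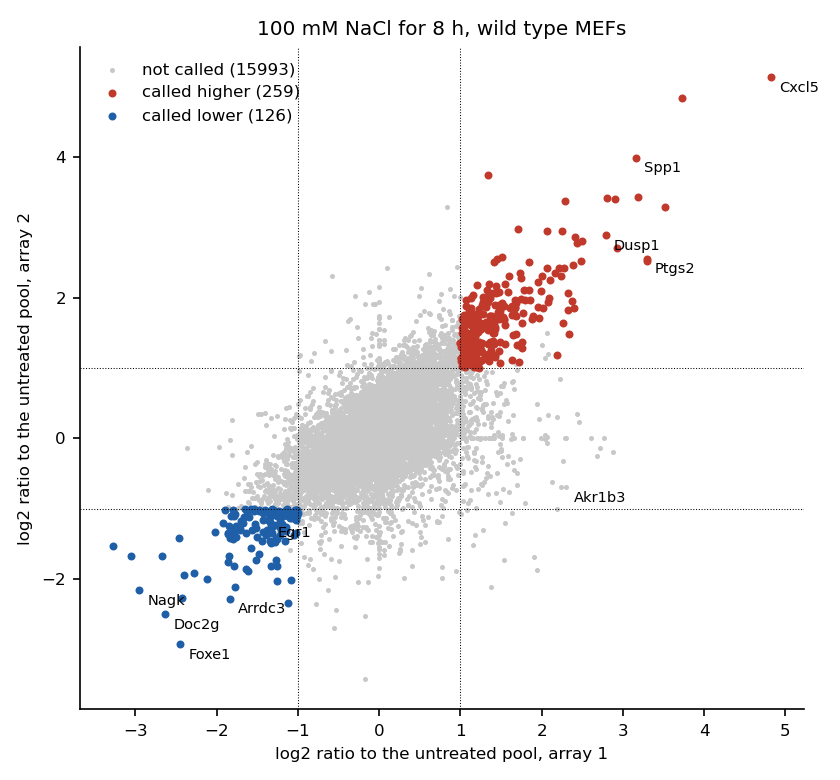
Log2 ratio to the untreated pool of each gene on array 1 (horizontal axis) and array 2 (vertical axis) after 8 h in NaCl, with genes called higher, called lower and not called in different colours. The 259 higher genes reach 5.14 on array 2, while only 4 of the 126 lower genes are below -2 on both arrays.

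Among the 5 genes at least 8-fold up on both arrays were Cxcl5, Spp1 and F2rl1, which code for secreted or surface proteins. Cxcl5, a chemokine that attracts neutrophils, was at 4.82 and 5.14 on the 2 arrays (mean 4.98, SE 0.37, adjusted p = 7.96e-08). Both 8 h arrays were far from the 2 h arrays, which gave 0.00 and 0.79, and from the 45 min arrays, which both gave 0.00. Without salt, Cxcl5 averaged 4.46 with TNFα for 45 min, so a high level was not particular to salt. Its pool signal was well above background on 1 of the 2 arrays and its signal at 2 h on neither, so the difference from 2 h is best read as at least 3.53-fold (adjusted p = 5.05e-05).

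Spp1, which codes for the matrix cytokine osteopontin, was at 3.16 and 3.99 (mean 3.58, SE 0.38). At 2 h it stood at 0.84 and 0.81, and at 45 min at 0.77 and 0.69. In SB203580 with no stress it was at 0.67 and 0.62, so a level of this size above the pool was not particular to salt. It changed little from 45 min to 2 h and was higher at 8 h than at 2 h by 2.75 (adjusted p = 0.00339). F2rl1, the protease-activated receptor that trypsin-like enzymes cleave, was at 3.52 and 3.30, after 1.44 and 1.09 at 2 h. It rose to 3.41 (SE 0.26, adjusted p = 1.27e-07), and 8 h exceeded 2 h by 2.14. Also at least 8-fold up, the little-characterised 5430417L22Rik (now Inafm2) gave 3.19 and 3.43 after 0.70 and 0.03 at 2 h.

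Chemokines and other secreted factors were the list with the largest number of genes called higher, though not with the largest share. Of 46 measured chemokine, cytokine and growth factor genes, 9 were called higher (19.6%, beside 1.58% of all genes) and none lower (0.769% of all genes), with a median of 0.22 (log2) against 0.0024 over all genes. By adjusted p alone 16 were higher (34.8%, beside 10.8%) and 2 lower (4.35%, beside 11.0%). Beside Cxcl5 and Spp1 the 9 genes were Ccl20, Ccl7, Gm1960 (Cxcl3), Inhba, Ngfb, Tgfb2 and Ccl2. The call of Inhba, an activin subunit, was lost without either array, at 1.72 and 1.33. Ccl20, a chemokine for lymphocytes and dendritic cells, was at 2.41 and 2.87, above both 2 h arrays at 1.60 and 0.88, though the difference did not pass the test (adjusted p = 0.151). Ccl7, a monocyte chemokine, was at 2.06 and 2.95 and at 0.26 on both 2 h arrays. The lower value of array 1 holds a second probe at 0.47 that array 2 did not measure, and the probe that both measured read 3.66 and 2.95. With TNFα for 45 min and no salt, Ccl20 averaged 7.07 and Ccl7 4.1, both above their 8 h means. In that condition Gm1960 averaged 1.67, Spp1 1.45 and Inhba 0.11. Ptgs2, the inducible cyclooxygenase that starts prostaglandin synthesis, stayed high at 3.29 and 2.56 after 3.81 and 2.28 at 2 h, and 8 h did not differ from 2 h by the test (-0.12, adjusted p = 0.963).

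**Figure D2:**
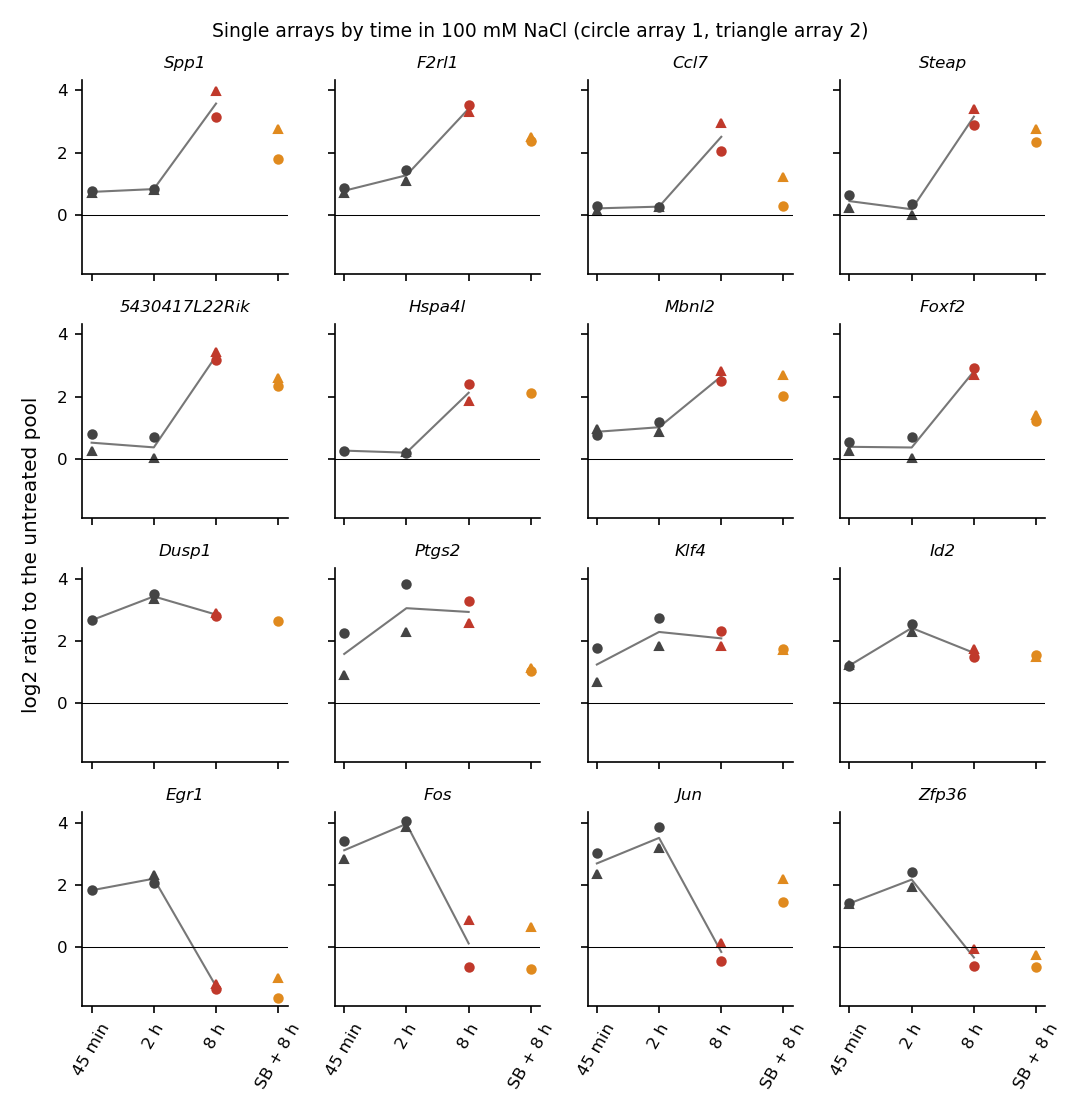
Log2 ratio to the pool of 16 genes after NaCl for 45 min, 2 h and 8 h and after SB203580 with NaCl for 8 h, with a circle for array 1 and a triangle for array 2. Spp1, Foxf2, Steap and 5430417L22Rik lie below 1 until 2 h and above 2 at 8 h, Dusp1 and Ptgs2 lie high at 2 h and 8 h, and Fos, Jun and Zfp36 lie high at 2 h and near the pool at 8 h.

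Of the 259 genes above the pool at 8 h, 242 were also measured on both 2 h arrays, and 59 of these were called higher at 8 h than at 2 h. The whole comparison of 8 h with 2 h called 87 of 15577 genes higher (0.559%) and 93 lower (0.597%). Against 45 min, 78 of 206 measured ones were called higher, where that comparison called 95 of 12661 genes higher (0.75%) and 98 lower (0.774%). The time comparisons share the 8 h arrays with the comparison that chose the 259 genes, so these shares describe them and test nothing. The median level of the 259 genes was 0.38 at 45 min and 0.47 at 2 h, beside 0.49 in SB203580 alone, with no salt. It was 0.40 with anisomycin and 0.36 with TNFα, so a level of this size was not particular to salt. Of 251 measured in all 11 wild type conditions, 52 were less than 0.5 above the pool in each of the 9 conditions other than NaCl for 8 h with and without SB203580. Among the genes highest over 2 h was Foxf2, a forkhead factor of mesenchymal tissue, at 2.92 and 2.71 after 0.69 and 0.03, a difference of 2.45 (adjusted p = 6.62e-06). Steap (now Steap1), a metalloreductase of the cell membrane, was at 2.90 and 3.41 after 0.35 and -0.00. For Foxf2 and Steap both 8 h arrays were above both 2 h arrays.

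Further genes among the strongest rises belonged to none of the groups described here. Gclc, the catalytic subunit of the rate-limiting enzyme of glutathione synthesis, was at 2.48 and 2.53 (mean 2.51, SE 0.12, adjusted p = 2.60e-08). Hs3st1, which adds sulphate to heparan sulphate chains, was at 2.80 and 3.42, and Amd1, a decarboxylase of polyamine synthesis, at 2.27 and 2.43. Amd1 and Hs3st1 were already above the pool at 2 h, at 1.75 and 1.02 and at 1.97 and 1.56. Mbnl2, a splicing regulator, was at 2.5 and 2.81 after 1.18 and 0.85, higher than at 2 h by 1.64 (adjusted p = 2.86e-04). St3gal6, a sialyltransferase, averaged 2.32, but its probes read 4.11 and 0.54. Differences of this kind were frequent: of 59 higher genes with several measured probes, 23 had probes more than 1 apart on the log2 scale and 3 had probes of opposite sign.

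Several growth factor receptors and kinases were higher at the 2-fold threshold. Of 28 measured receptor tyrosine kinases and protein kinases 6 entries, which are 5 genes, were called higher (21.4%, beside 1.58% of all genes) and none lower (0.769% of all genes). By adjusted p alone 12 were higher (42.9%, beside 10.8%) and 3 lower (10.7%, beside 11.0%). Egfr, the epidermal growth factor receptor, was at 1.18 and 1.45 at 8 h and at -0.10 and -0.00 at 2 h, so that both 8 h arrays lay above both 2 h arrays and the difference was 1.36 (adjusted p = 1.56e-05). A second entry that RefSeq now places with Egfr, 9030024J15Rik, gave 1.05 and 1.32. Epha2, an ephrin receptor, stood at 1.46 and 1.80 after 2.44 and 1.71 at 2 h. Prkca, the protein kinase Cα, was at 1.55 and 2.20, and Lyn, a kinase of the Src family, at 1.15 and 1.71. Calls for Egfr and Lyn were lost with normexp, at 1.04 and 1.23, and with outlier spots kept, at 1.06 and 1.05.

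Of 18 measured MAP kinase phosphatases and other phosphatases 5 were called higher (27.8%, beside 1.58% of all genes) and none lower (0.769% of all genes), with a median of 0.71. By adjusted p alone 9 were higher (50%, beside 10.8%) and 2 lower (11.1%, beside 11.0%). Dusp1, the dual specificity phosphatase that acts on p38, JNK and ERK, was at 2.79 and 2.89 at 8 h and at 3.50 and 3.34 at 2 h. It rose to 2.84 over the pool (SE 0.15, adjusted p = 2.11e-07), and 8 h did not differ from 2 h by the test (-0.59, adjusted p = 0.135). Dusp4, another nuclear phosphatase of this family, was at 1.18 and 1.60 after 1.80 and 1.44. Ptp4a2, a prenylated tyrosine phosphatase, was at 1.61 and 1.86 after 0.12 and 0.02, and Ppm1d, a p53-induced phosphatase, at 1.23 and 1.66. The Ppm1d probes averaged 2.17, 2.13 and 0.03. Ptprb, at 1.05 and 1.19, had probes at 2.99, 0.87 and -0.50. With normexp 3 phosphatases stayed called, and Dusp4 and Ptprb were not among them. Of the 26 measured genes of the p38 pathway itself none was called, beside 1.58% higher and 0.769% lower of all genes, with a median of 0.055. By adjusted p alone 5 of them were higher (19.2%, beside 10.8%) and 4 lower (15.4%, beside 11.0%).

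Immediate early transcription factors divided into genes back at the pool and genes still above it. These factors are switched on within minutes by stress and growth factors, without new protein synthesis. Fos, an AP-1 subunit, was at -0.66 and 0.88 at 8 h and at 4.05 and 3.87 at 2 h, a difference of -3.85 (adjusted p = 1.01e-04). Its 8 h arrays lay on both sides of the pool, and its level there did not differ from 0 by the test (adjusted p = 0.871). In SB203580 with no stress Fos was at 2.4 and 2.2, so a level above the pool was not particular to salt. Jun, the partner of Fos in AP-1, was at -0.46 and 0.13 after 3.84 and 3.17, a difference of -3.67 (adjusted p = 6.62e-06). Zfp36, which binds AU-rich messages and speeds their decay, was at -0.62 and -0.07 after 2.41 and 1.92. Gadd45b, a growth arrest gene, was at -0.33 and -0.32 after 1.72 and 1.43. Nmyc1 (Mycn), a Myc family factor, was at 0.52 and 0.53 after 1.95 and 1.67, so it was lower than at 2 h by 1.28 and still above the pool (adjusted p = 0.00564).

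Egr1, a zinc finger factor of the same early class, went below the pool. It was at -1.35 and -1.20 at 8 h (mean -1.27, SE 0.25, adjusted p = 0.00178) and at 2.07 and 2.32 at 2 h, a difference of -3.47 (adjusted p = 4.09e-05). With normexp it was at -1.01 and no longer called. On the other side were Klf4, at 2.32 and 1.83 after 2.73 and 1.83, Maff, at 1.96 and 1.86 after 2.35 and 1.61, and Mafk, at 1.74 and 1.98 after 1.80 and 1.26. Klf4 is a Krüppel-like factor, and Maff and Mafk are small partners of basic leucine zipper factors. None of these 3 differed from 2 h by the test. Ier5 was at 1.36 and 1.99 after 2.97 and 2.53, and Id2, an inhibitor of helix-loop-helix factors, at 1.48 and 1.73 after 2.54 and 2.27. Of 28 measured factors of this list 6 were called higher than the pool (21.4%, beside 1.58%) and 1 lower (3.57%, beside 0.769%). Against 2 h, of 27 measured, none was called higher (beside 0.559% of all genes) and 5 were called lower (beside 0.597%).

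The upstream sequence is given for 1 early gene that stayed high and for a pair that did not, since these genes carry the contrast between 2 h and 8 h. The 250 bases before the transcription start come from RefSeq (GRCm38.p6), 5′ to 3′ on the gene's strand, with the matches to 1 motif in capitals. For Dusp1 (chr17:26508473-26508722, minus strand) these are the cyclic AMP response element core, TGACGTC, read on both strands at 2 places. For Zfp36 (chr7:28379229-28379478, minus strand) the capitals are the single match to the serum response element. For Jun (chr4:95052223-95052472, minus strand) they are the single CCAAT box.
Dusp1: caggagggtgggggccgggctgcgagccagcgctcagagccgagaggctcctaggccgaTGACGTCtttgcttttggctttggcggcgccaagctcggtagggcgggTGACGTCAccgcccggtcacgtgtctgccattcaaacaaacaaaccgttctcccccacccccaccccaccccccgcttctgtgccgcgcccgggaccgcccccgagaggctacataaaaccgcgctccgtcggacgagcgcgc
Zfp36: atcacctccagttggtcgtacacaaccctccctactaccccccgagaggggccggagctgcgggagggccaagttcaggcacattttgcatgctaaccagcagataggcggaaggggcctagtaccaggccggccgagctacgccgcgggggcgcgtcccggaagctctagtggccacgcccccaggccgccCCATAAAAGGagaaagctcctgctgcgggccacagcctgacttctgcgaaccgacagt
Jun: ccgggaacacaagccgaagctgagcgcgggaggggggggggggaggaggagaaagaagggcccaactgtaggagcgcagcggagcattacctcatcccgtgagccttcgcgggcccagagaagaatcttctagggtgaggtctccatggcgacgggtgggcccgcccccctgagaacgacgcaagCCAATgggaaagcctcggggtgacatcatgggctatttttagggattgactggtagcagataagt
The response element core of Dusp1 was present in 4.6% of the promoters of all measured genes, the serum response element of Zfp36 in 1.3% and the CCAAT box of Jun in 38.8%. Among genes called higher and lower than the pool, the core of Dusp1 was in 3.1% and 7.4%. The element of Zfp36 was in 1.0% and 3.7% of them.

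Promoter windows from 250 bases before to 50 bases after the start were found for 11587 of the 16378 genes, among them 194 of the 259 higher and 81 of the 126 lower ones. The motifs were searched on both strands. TGGAAA, the core of the element that Nfat5 binds, was in 19.6% of the windows of higher genes, 14.8% of those of lower genes and 19.6% of all windows. The AP-1 site TGANTCA was in 5.2% of higher and 2.5% of lower genes against 6.8% of all. CCAAT was in 35.6% and 44.4% against 38.8%, the cell cycle element TTTGAA in 12.4% and 13.6% against 15%, and, of the 2 forms of the E2F site that were searched, TTCCCGC in 9.8% and 7.4% against 6.5% and TTGGCGC in 4.6% and 3.7% against 3.8%. The median GC content was 63.5% in windows of higher genes, 58.3% in those of lower genes and 58.0% in all. A match is a run of letters in the window and was not tested as a site.

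Genes of osmotic adaptation and protein folding gave a mixed picture. Hspa4l, an Hsp110-type chaperone known to respond to high osmolarity, was at 2.39 and 1.85 (mean 2.12, SE 0.12, adjusted p = 1.07e-08) after 0.17 and 0.22 at 2 h. Both 8 h arrays were well above both 2 h arrays, and the difference was 1.93 (adjusted p = 1.02e-05). Hspa1a, the inducible Hsp70, was at 1.46 and 2.09. Its array 1 mean holds a probe at -0.245 that array 2 did not measure, and the probes that both measured averaged 2.32 and 2.09. Slc38a2, a neutral amino acid transporter that accumulates osmolytes, was at 1.39 and 1.74. Nfat5 itself was at 0.53 and 0.58, above the pool by the test (adjusted p = 4.02e-04) but below 2-fold. These means rest on different probes. Of the Nfat5 probes measured on both arrays, the higher read 1.36 and 1.55 and the lower 0.84 and -0.39. Further probes, measured on array 1 alone, read 0.02, 0.35 and 0.06. Slc6a6, the taurine transporter, averaged 0.99 on both arrays, and the probe measured on both read 0.99 and 0.43. Slc5a3, the inositol transporter, was at 0.21 and 0.05 (adjusted p = 0.651).

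Akr1b3, the aldose reductase that makes sorbitol, could not be settled, with 2.30 on array 1 and -0.70 on array 2. On array 1 its probes read 4.52, 2.61 and -0.23, whereas on array 2 the first and second of these were marked as outliers and the last read -0.70. With outlier spots kept, Akr1b3 was called higher, at 2.58. Sgk (Sgk1), a kinase that responds to cell volume, had the same limit: it read 3.95 on array 1, and the array 2 spot, at 3.48, was marked as an outlier and left out. Of 14 measured genes of osmotic adaptation 3 were called higher (21.4%, beside 1.58%) and none lower, with a median of 0.48. Of 33 chaperones 5 were called higher (15.2%) and none lower, with a median of 0.29, and besides the Hsp70 genes these were Hsp105 (Hsph1), Hspca (Hsp90aa1) and Cryab. Hsp105 was not called with normexp, at 1.17, and Hspca was not called without array 2, at 1.10.

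Transporters and cell surface genes were scattered in both directions. Of 287 solute carriers 5 were called higher and 4 lower, 1.74% and 1.39%, against 1.58% and 0.769% over all genes. Slc1a3, a glutamate transporter, averaged 1.68 and 1.93 from probes at 3.33 and 0.29. Slc38a4, an amino acid transporter, was at 1.67 and 1.75 after 0.53 and 0.30, and Slc30a4, a zinc exporter, at 1.32 and 1.66. Slc26a11, an anion transporter, was lower, at -1.76 and -1.25. Of 121 ion channels 1 was called higher (0.826%, beside 1.58% of all genes) and 1 lower (0.826%, beside 0.769%). The higher one was Accn3 (Asic3), an acid-sensing channel, at 1.95 and 2.23.

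The genes below the pool differed in where they stood in the other wild type conditions. Of 121 lower genes measured in all 11 conditions, 12 had a mean at least 2-fold below the pool in every one. A further 62 were less than 0.5 (log2) below it in each of the 9 conditions other than NaCl for 8 h with and without SB203580, and 47 fitted neither description. Foxe1, a forkhead factor of the thyroid and 1 of the 12, was at -2.45 and -2.93, and in the other 10 wild type conditions its mean ran from -3.65 to -2.18. Its treated signal was not well above background on either 8 h array, so its fall was at least 1.83-fold (adjusted p = 8.91e-06), and with normexp it was no longer called, at -0.88. Doc2g was at -2.64 and -2.50, with -2.40 to -1.25 elsewhere, and Gm1961 (Vmn2r43), a pheromone receptor, at -2.43 and -2.27, with -2.07 to -1.26. Matn1, a cartilage matrix protein, was at -1.84 and -1.68, with -2.04 to -1.17. Psmd13, a proteasome subunit, was not among the 12, at -1.39 and -1.38 with -2.04 to -0.86 elsewhere. All these conditions share the pool and the dye orientation, and SB203580 alone, with no stress, gave -2.65 for Foxe1. None of these 5 genes was lower at 8 h than at 2 h by the test (adjusted p from 0.174 to 0.587).

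Other lower genes were lower at 8 h than at the earlier times. Of 118 lower genes measured at 2 h, 39 were called lower than at 2 h, and of 93 measured at 45 min, 44 were called lower than then. The median of the 126 genes was -0.25 at 2 h and -0.11 at 45 min. Nagk, the kinase that salvages N-acetylglucosamine, was at -2.96 and -2.17 (mean -2.56, SE 0.17, adjusted p = 1.56e-08) after -0.73 and -1.12 at 2 h, when it was already below the pool. AI316807 (Smim19) was at -2.12 and -2.0 after 0.23 and -0.30. Both arrays of either gene were below both 2 h arrays, by 1.63 (adjusted p = 2.93e-04) and 2.02 (adjusted p = 1.02e-04) in the mean. Med9, a subunit of the Mediator complex that links factors to RNA polymerase II, was at -1.79 and -1.81 after 0.27 and -0.19, lower by 1.84. Pdk1, which inhibits pyruvate dehydrogenase, was at -1.10 and -1.14 after 0.32 and -0.11, and Insig1, the sterol-regulated anchor of SREBP, at -1.27 and -1.73 after 0.43 and 0.37. Pdk1 and Insig1 lost the call against the pool with normexp, at -0.91 and -1.12, and Insig1 lost it without array 2, at -1.27.

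**Figure D3:**
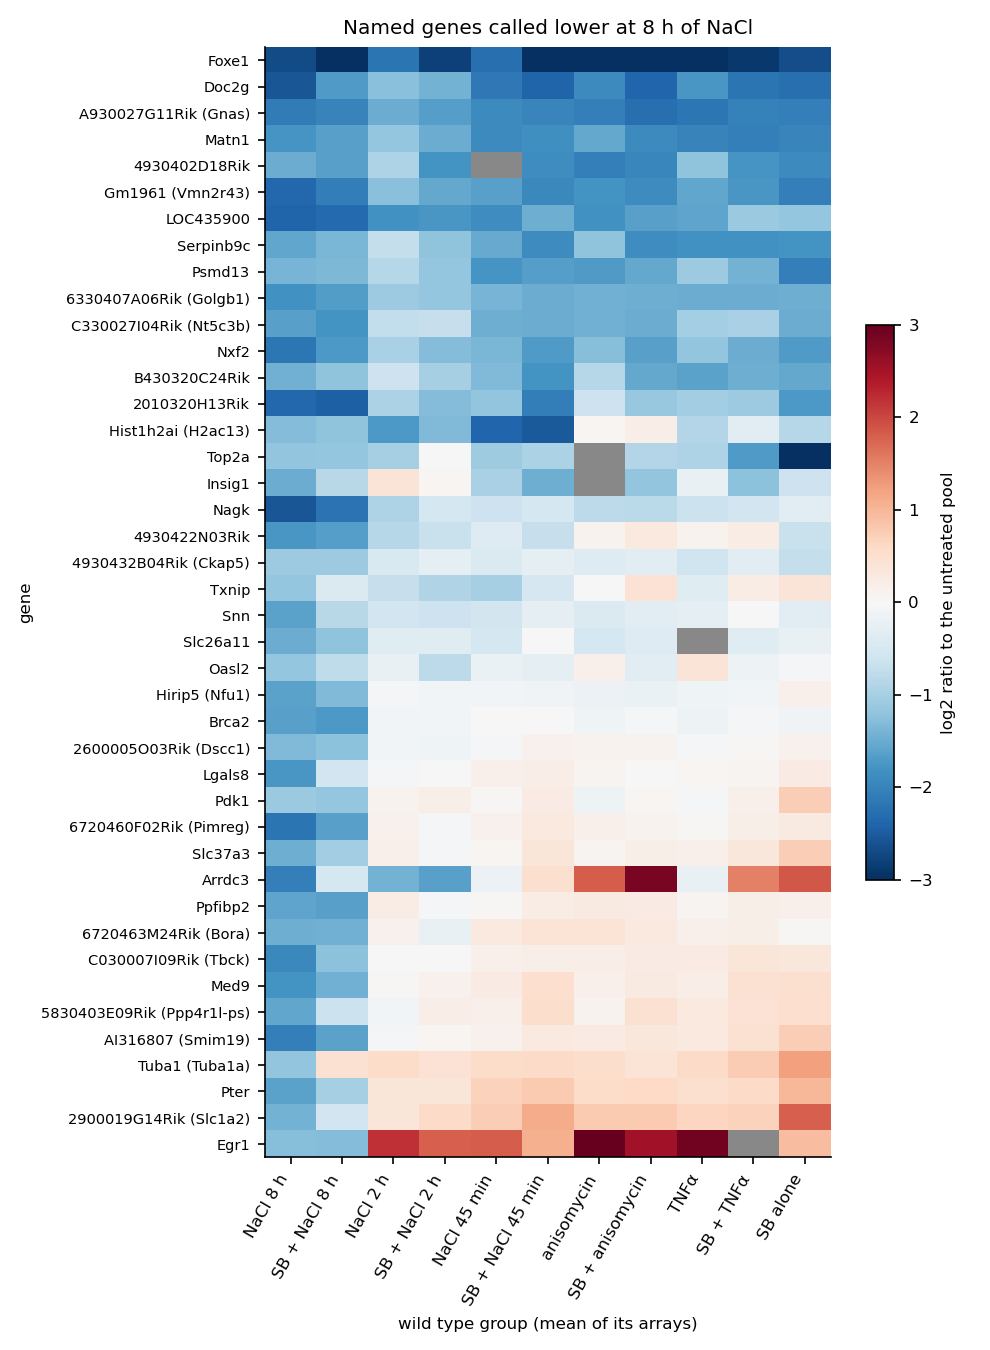
Mean log2 ratio to the shared pool of the named lower genes (rows) in the 11 wild type conditions (columns), with colours limited to 3 either side of 0 and grey for values not measured. Genes such as Foxe1 and Matn1 are low in every condition, whereas Med9, Nagk and Lgals8 are lowest in the 8 h NaCl columns.

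Several lower genes work in cell division. Brca2, which loads the recombinase onto broken DNA, was at -1.83 and -1.41 (mean -1.62, SE 0.12, adjusted p = 6.07e-08) after -0.22 and 0.04 at 2 h. 6720463M24Rik (Bora), an activator of the mitotic kinase Aurora A, was at -1.51 and -1.40 after 0.40 and -0.13, and 6720460F02Rik (Pimreg), a gene of dividing cells, at -2.67 and -1.68 after 0.20 and 0.05. All 3 were called lower than at 2 h, by 1.54, 1.59 and 2.30. With normexp Brca2 was at -0.88 and Bora at -0.81, and neither was called. Top2a, the topoisomerase that untangles chromosomes, was at -1.02 and -1.35, and at -0.81 and -1.19 at 2 h. Its mean was also below the pool without salt, at -0.94 with TNFα and at -3.04 in SB203580 alone, where 1 array measured it. At 8 h its probes averaged -0.73 and -1.64.

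As a list, 68 mitosis genes had a median of -0.19, with 3 called lower (4.41%, beside 0.769% of all genes). Ect2, a regulator of cytokinesis at 1.24 and 1.77, alone was called higher (1.47%, beside 1.58%). By adjusted p alone 15 mitosis genes were lower (22.1%, beside 11.0%) and 5 higher (7.35%, beside 10.8%). On both arrays 38 of the 68 were below the pool. Against 2 h, where the adjusted p alone called 504 of all genes higher (3.24%) and 674 lower (4.33%), 10 of 59 mitosis genes were lower and 1 higher, among them Ccnb2, a mitotic cyclin, lower by 0.88 (adjusted p = 2.58e-04), and Ccna2, a cyclin of S phase and mitosis, lower by 0.94 (adjusted p = 0.00190). With normexp no mitosis gene was called lower at the 2-fold threshold. DNA replication genes had a median of -0.06 over 56 genes, with 13 lower (23.2%, beside 22.1% of the mitosis genes) and 10 higher by adjusted p alone, and 8 of 47 lower than at 2 h and 2 higher. At the 2-fold threshold 2 were called higher (3.57%, beside 1.58% of all genes) and 1 lower (1.79%, beside 0.769%). Among these were Exo1, an exonuclease of repair, higher at 1.40 and 1.5, and 2600005O03Rik (Dscc1), a cohesion factor, lower at -1.62 and -1.03. Ccnd1, the cyclin of G1 phase, was higher, at 1.24 and 1.10. Of the p53 pathway and cell cycle inhibitors, Cdkn1a, the p21 inhibitor, was at -0.43 and -0.53 and did not reach 2-fold, while Tob1, an antiproliferative factor, was at 1.15 and 1.25 and Btg3, of the same family, at 1.04 and 1.66.

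Histone genes, whose messages rise in S phase, had 4 calls up (12.5%, beside 1.58% of all genes) and 1 down (3.12%, beside 0.769%) of 32. Their median was -0.09. The higher ones were Hist1h4i at 1.36 and 1.37, Hist1h1c, a linker histone, at 1.76 and 1.28, Hist1h2bm at 1.19 and 1.15 and Hist3h2bb at 1.08 and 1.10. Hist1h2ai, at -1.23 and -1.38, was also below the pool at 2 h, at -1.79 and -1.65, and at 45 min, at -2.58 and -2.16. Histone genes have near-identical copies, so a probe may read more than 1 of them, and 1 higher and 1 lower were left with normexp.

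**Figure D4:**
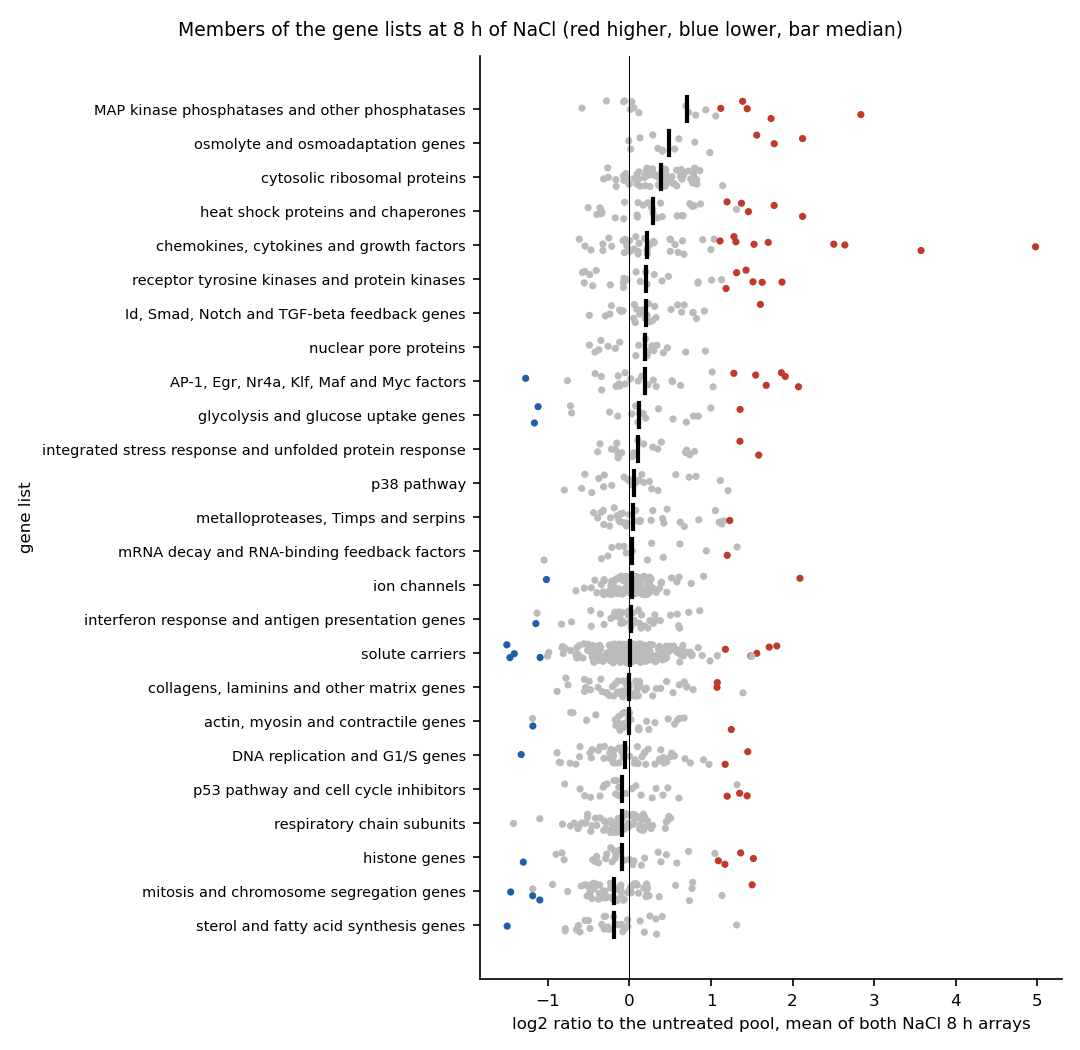
Mean log2 ratio to the pool at 8 h of every measured gene in 25 lists of genes, 1 strip for each list, with the median marked. Most lists centre near 0, phosphatases (0.71), osmotic adaptation genes (0.48) and cytosolic ribosomal proteins (0.39) lie highest, and sterol synthesis and mitosis genes (-0.19 each) lie lowest.

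Other lists had medians near the pool, with few or no 2-fold calls. Cytosolic ribosomal proteins had a median of 0.39, with 31 of 77 higher by adjusted p alone (background 10.8%) and none lower, but they did not exceed their 2 h level, from which the median difference was -0.23. The largest, Rpl39, was at 0.85 and 1.43. Respiratory chain subunits had a median of -0.09, with 17 of 74 lower by adjusted p alone (background 11.0%) and 4 higher, and a median difference from 2 h of -0.30. Among them Atp5s (Dmac2l), an ATP synthase factor, was at -0.99 and -1.21 (adjusted p = 5.62e-05). Of 31 sterol and fatty acid synthesis genes Insig1 alone was called, lower (3.23%, beside 0.769% of all genes). Against 2 h Insig1 and Sqle, the squalene epoxidase, were lower, Sqle by 1.52 (adjusted p = 0.0276). Matrix genes, metalloproteases, interferon response genes, nuclear pore proteins and genes of the unfolded protein response had medians between -0.01 and 0.20. Called higher were 2 of 57 matrix genes (3.51%) and 1 of 34 metalloproteases and inhibitors (2.94%), beside 1.58% of all genes. Of 45 interferon response genes 1 was called lower (2.22%, beside 0.769%). No nuclear pore protein was called. Of 21 unfolded protein response genes 2 were called higher (9.52%, beside 1.58%) and none lower. Within them, 1810008K03Rik (Chac1), which degrades glutathione, was higher at 1.69 and 1.48, a call that was lost without either array.

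Few genes differed between NaCl for 8 h alone and with SB203580. Of 15082 genes measured on all 4 arrays, 5 were higher in NaCl alone than with SB203580 (0.0332%) and 7 were lower (0.0464%). With the replicate number as a block, these counts were 14 and 16. In wild type arrays this number also went with the scan, and the labels do not say that it marks the experiment. They also rested on array 2 of NaCl for 8 h, without which no gene was called, and without array 1 they were 30 and 29. By adjusted p alone 16 were higher (0.106%) and 14 lower (0.0928%), and the unadjusted p was under 0.05 for 357 genes higher and 378 lower. The median of the 259 higher genes was 1.46 in NaCl alone and, over the 238 measured, 1.10 with SB203580. That of the 126 lower genes was -1.34 and, over the 118 measured, -1.18. By unadjusted p under 0.05, 75 of the 238 were higher in NaCl alone than with SB203580 and 3 lower. Of the 118, 21 were lower in NaCl alone and 0 higher. The same NaCl arrays chose these genes, so these numbers describe them and test nothing.

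Cxcl5 differed most, at 4.82 and 5.14 in NaCl alone and 0.00 and 1.79 with SB203580, at least 3.13-fold higher without the inhibitor (adjusted p = 0.00522). Foxf2 was at 2.92 and 2.71 against 1.21 and 1.39 (difference 1.51, adjusted p = 0.00668). In Cxcl5 and Foxf2 both arrays of NaCl alone were above both arrays with SB203580. A030004J04Rik (Prr9) was at 1.40 and 2.07 against 0.00 and 0.62. 1810019J16Rik (Kdf1) was not well above background in either channel, so no fold is given.

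Among the genes higher with SB203580 was Jun, at -0.46 and 0.13 in NaCl alone and 1.46 and 2.18 with SB203580 (difference -1.98, adjusted p = 0.0129). In SB203580 without salt Jun was at 2.05 and 1.64, so it was above the pool in that condition too. The same condition gave 1.79 and 1.43 for Rab3a, 1.49 and 1.07 for 2410129E14Rik and, on the 1 array that measured them, 1.57 for Jund1 and 1.22 for Tuba1. It gave 0.78 and 0.18 for V2r14 and 0.34 and 0.16 for Lgals8. Jund1 (Jund), another AP-1 subunit, was at 0.30 and 0.74 against 1.83 and 2.00. Tuba1 (Tuba1a), an α-tubulin, was at -1.22 and -1.15 against 0.34 and 0.58 (difference -1.64, adjusted p = 0.0208), and 2410129E14Rik (Tubb2b), a β-tubulin, at 0.40 and 0.94 against 1.66 and 2.04. Lgals8, a galectin that binds sugars on damaged vesicles, was at -1.64 and -1.86 against -0.35 and -0.79 (difference -1.18, adjusted p = 0.00558). Its value rests on 1 of 2 probes, and with outlier spots kept it was at -0.89 and not called against the pool. Rab3a, a GTPase of vesicle release, was at 0.32 and -0.54 against 1.36 and 1.84, and V2r14 (Vmn2r37), a pheromone receptor, at -0.15 and 0.15 against 1.79 and 1.40.

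**Figure D5:**
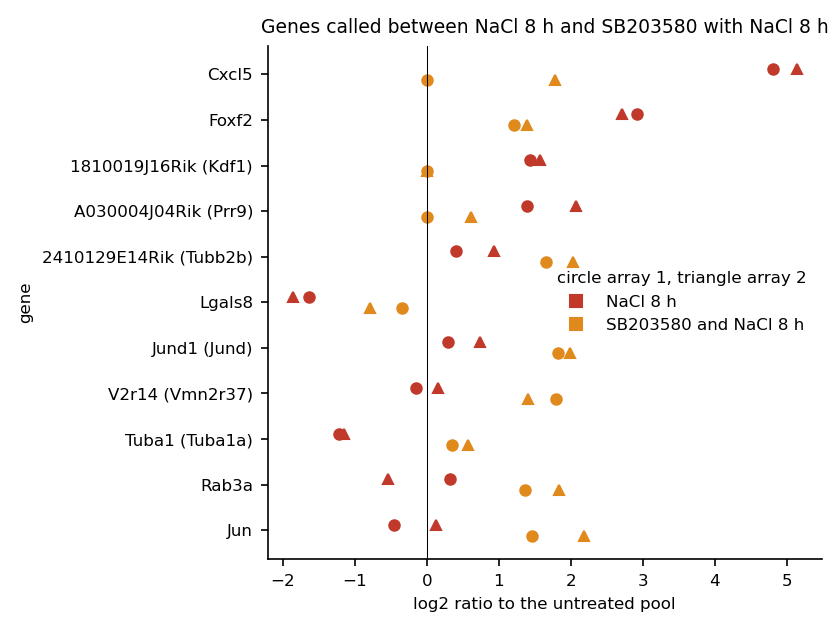
Log2 ratio to the pool of named genes called in the comparison of NaCl for 8 h with SB203580 and NaCl for 8 h, with both arrays of each condition shown. Cxcl5 and Foxf2 lie higher in NaCl alone, and Jun, Tuba1 and Lgals8 lie higher with SB203580.

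Other late genes had lower values with SB203580 that did not pass the test. Ptgs2 was at 1.04 and 1.13 with the inhibitor against 3.29 and 2.56 without it (difference 1.84, adjusted p = 0.350). Ccl7 was at 0.28 and 1.22 against 2.06 and 2.95 (adjusted p = 0.244), and Dusp4 at -0.48 and 0.33 against 1.18 and 1.60 (adjusted p = 0.0670). Egfr and Cryab differed by the adjusted p but by less than 2-fold, at 0.86 (adjusted p = 0.0138) and 0.92 (adjusted p = 0.0129). Hspa4l was at 2.11 on the 1 array with SB203580 that measured it, and Klf4 was at 1.74 and 1.69 against 2.32 and 1.83. Brca2 was at -1.92 and -1.51 with SB203580, Med9 at -1.45 and -1.46 and Nagk at -2.55 and -1.89, beside -1.83 and -1.41, -1.79 and -1.81, and -2.96 and -2.17 without it. Arrdc3, an arrestin-like adaptor of receptor turnover, was at -1.84 and -2.28 in NaCl alone and -0.17 and -0.90 with SB203580 (difference -1.52, adjusted p = 0.486), and SB203580 without salt gave 2.79 and 0.93.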

How the data were processed

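Total RNA of MEFs was measured on 30 two-colour Agilent 44K arrays, 2 for each of 15 conditions, with the treated RNA in Cy5 against the untreated pool. The authors took spot intensities from the scans with Agilent Feature Extraction, version 9.1 in the submitters' processing notes and 8.1.1.1 in the file headers, with dye normalization by a linear and a LOWESS step, spatial detrending, no local background subtraction and surrogates for dim signals. The deposited log10 ratios, Cy5 over Cy3, were the main values. The deposited mean and background intensities, and the authors' series matrix of values on the log2 scale, served as alternatives. The sample titles give another dose and time for SB203580 than the protocol, and the protocol's were used.

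Control and outlier spots were left out, log10 ratios were turned into log2, and each array's value for a gene was the mean of its probes, themselves means of their spots. Because outlier spots differ between arrays, a gene's mean can rest on different probes on each. Of 41174 probes 33453 carried a gene name, giving 21689 genes, of which 19949 matched a RefSeq symbol and 7418 got a newer one, shown in brackets. Promoter windows came from RefSeq (GRCm38.p6).

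limma 3.58.1 in R 4.3.3 was fitted with 1 mean for each of the 15 conditions over all 30 arrays and with moderated variances, and 8 h against 2 h, 45 min or SB203580 were contrasts of this fit. Benjamini-Hochberg adjustment ran over every gene with a value on all arrays compared. A call needed an adjusted p under 0.05 and at least 2-fold in the same direction on both arrays, or in both same-numbered pairs of arrays. The error given is the standard error of the fit with n = 2 arrays, and the number of arrays limits the precision. A gene not well above background on both arrays of a side has a lower bound, the bright mean against the higher of the dim probe and the dimmest probe above background. The R packages were version 1.17.8 of data.table and jsonlite 2.0.0, and tables and plots were made with Python 3.11.15, numpy 2.4.6, pandas 2.3.3 and matplotlib 3.10.9.

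The genes named are the 25 higher and 30 lower genes whose smaller array difference was largest, up to 6 called genes of each of 25 lists, 8 genes in each direction of each contrast and a fixed set of osmotic and early genes, 138 in all. A few of these are not reported here. Twist1, Ngfb, Tgfb2, Ccl2, Ccnb2, Ccna2, Rpl39, Atp5s and Sqle were named after their values were seen. Members, lists and tests were chosen with earlier results of these data known.

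Same-numbered wild type arrays deviated together in 55 of 55 pairs of conditions (correlation of deviations 0.133 to 0.645), and the arrays of 1 number were scanned together, so the numbers pair the samples. The scan and the experiment cannot be told apart. On simulated data with 4-fold changes, limma called 98.5% of 200 changed genes against the pool, over 16378 genes, and 91.0% against 2 h, over 15577 genes. False calls numbered 0 and 4. Few genes called here reached 4-fold on both arrays, and the simulated noise was independent, without the shared deviations of same-numbered arrays. These shares therefore do not tell how many smaller changes were found.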

Additional observations from a re-analysis of the deposited data

Results flagged for a closer look

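Genes whose difference between 8 h and another condition passed the test of the difference itself are given here as values, with no explanation. Against 2 h, 87 genes were higher and 93 lower at 8 h. Among the higher ones with the largest smaller array difference were Cxcl5 (at least 3.53-fold), B230117O15Rik (at least 1.93-fold), Steap (2.98 on the log2 scale), 5430417L22Rik (2.94), Spp1 (2.75), Foxf2 (2.45) and 4921509J17Rik (2.77). B230117O15Rik stood at 0.84 and 0.88 at 8 h and at -2.06 and -1.79 at 2 h, and 4921509J17Rik, a gene with no current symbol, at 3.29 and 2.52 after -0.06 and 0.34. Among the lower ones were Fos (-3.85), Jun (-3.67), Egr1 (-3.47), Zfp36 (-2.51), 6720460F02Rik (-2.30), Gadd45b (-1.90) and Itgb3bp (-1.81). Itgb3bp, a centromere protein, was at -0.73 and -1.48 at 8 h and at 1.07 and 0.34 at 2 h.

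Against 45 min, 95 genes were higher and 98 lower. Among the highest were Cxcl5 (at least 3.15-fold), 4921509J17Rik (2.95), Spp1 (2.84), 5430417L22Rik (2.79), F2rl1 (2.64) and Foxf2 (2.43). Among the lowest were Fos (-3.0), Jun (-2.85), Pter (-2.31), 6720460F02Rik (-2.31), AI316807 (-2.19), Med9 (-2.04) and 2900019G14Rik (at least 1.42-fold lower). Pter, a phosphotriesterase-related gene, was at -1.86 and -1.35 at 8 h and at 0.71 and 0.70 at 45 min.

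Between NaCl for 8 h alone and with SB203580, 5 genes were higher in NaCl alone and 7 lower. Among them were Cxcl5 (at least 3.13-fold higher), Foxf2 (1.51), A030004J04Rik (1.42) and 1810019J16Rik, and, lower, Jun (-1.98), Rab3a (-1.71), Tuba1 (-1.64), V2r14 (-1.60), Jund1 (-1.39), 2410129E14Rik (-1.18) and Lgals8 (-1.18).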

How the results depend on the processing

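Normexp with loess left 151 higher and 41 lower genes against the pool, 48 and 38 against 2 h, 56 and 31 against 45 min, and 4 lower with SB203580 as the comparison. The adjusted p alone gave 1773 and 1795, 504 and 674, 415 and 477, and 16 and 14 in the same order, and 1.5-fold gave 700 and 516, 281 and 334, 280 and 317, and 15 and 11. A mean 4-fold below the pool, with no test, was found for 11 genes. With outlier spots kept, 153 genes were higher than at 45 min and 10 higher than with SB203580, and with the brightest probe of a gene the last count was 9. With only probes measured on every array compared, an alternative chosen after seeing the data, it was 8. The replicate block, which follows the pairing, gave 14 and 16 genes against SB203580 and moved no other count by over 1.5 times. Against the pool it changed no call of a named gene, and calls of single genes in the other comparisons were not checked.

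Leaving out 1 array removes its threshold on size, so most counts grew: 290 to 578 higher and 247 to 328 lower against the pool, 96 to 308 and 89 to 368 against 2 h, 96 to 202 and 124 to 216 against 45 min, and 0 to 30 and 0 to 29 against SB203580. Arrays of the compared conditions were left out too, also chosen after seeing the data.

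No named gene that was called against the pool changed sign under any alternative. For genes not called, a sign change counted as a reversal only beyond the array spread and with an adjusted p under 0.05. None met this, though Akr1b3 went from 0.80 to -0.46 with only probes measured on every array compared. Over 135 measured named genes, 1237 of the alternative values kept their call, 85 lost it, 39 of them with normexp, and 12 gained one. The cause of these losses was not tested. With normexp the lower genes 2010320H13Rik, 4930422N03Rik, LOC435900, C330027I04Rik, 5830403E09Rik, C030007I09Rik, Psmd13, Pter, 2600005O03Rik, Top2a, Txnip and Slc37a3 were among those no longer called. With 2 arrays and outlier flags on 30.0% of array 2, genes such as Sgk and Akr1b3 could not be judged.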
